A study of Rattus norvegicus with 12 samples.

Results

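The retina at postnatal day 14 (P14) was compared between pups with oxygen-induced retinopathy (OIR) and control pups (CTL), using the 2 libraries of that tissue and age among the 12 of the series. Both were taken by their sample titles and condition tags. The OIR library came from Sprague Dawley rats whose litters were kept from birth to P14 in oxygen that cycled between high and low levels. The CTL library came from Sprague Dawley rats of the same age kept in room air. Each library was made from 1 pool of 5 retinas, so these data hold no replicate check, no p-value is given, and "higher" and "lower" describe these pools. The other 10 libraries (retina at P7 and P17, and choroid at P7, P14 and P17, OIR and CTL of each) were used only as values set beside these. Each library had its small RNAs sequenced with unique molecular identifiers (UMIs), which count a captured molecule once, and features with at least 10 UMIs are listed.

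In the rat model, P14 closes the phase in which cycling oxygen stops and prunes the growing retinal vessels, before abnormal vessels form after the return to room air. microRNAs (miRNAs) are short RNAs cut from a hairpin, whose bases 2 to 8, the seed, pair with target messages and lower their translation and stability. Each hairpin can give a 5p and a 3p arm, of which the more abundant is called the major arm. In the retina, the miR-183/96/182 cluster marks photoreceptors and miR-124 and miR-9 mark neurons. The let-7 family is known to rise as cells differentiate, miR-210 to be induced by hypoxia-inducible factor, and miR-144/451 and miR-142 to belong to red and white blood cells.

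The sequences below are those of the miRNAs on which the results turn, from RefSeq (assembly GRCr8), with the seed in capitals. The first set shares the seed of the let-7 family, whose 9 members were all lower in OIR.
let-7a-5p: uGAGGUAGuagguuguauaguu
let-7b-5p: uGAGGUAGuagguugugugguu
let-7c-5p: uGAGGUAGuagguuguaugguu
let-7d-5p: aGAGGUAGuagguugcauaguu
let-7e-5p: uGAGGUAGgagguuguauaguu
let-7f-5p: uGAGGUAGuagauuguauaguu
let-7g-5p: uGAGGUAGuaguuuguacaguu
let-7i-5p: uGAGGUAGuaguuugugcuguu
miR-98-5p: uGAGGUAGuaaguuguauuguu

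The next set comprises the members of the photoreceptor cluster, whose ratios differed, followed by abundant or mid-level miRNAs at both ends of the comparison and the antisense partner of let-7a.
miR-182: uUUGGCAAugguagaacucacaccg
miR-183-5p: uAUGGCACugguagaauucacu
miR-96-5p: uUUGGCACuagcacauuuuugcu
miR-190b-5p: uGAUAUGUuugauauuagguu
miR-6328: aGGCCUGCucugagcccccgc
miR-3596a: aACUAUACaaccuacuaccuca
miR-21-5p: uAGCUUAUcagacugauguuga
miR-210-3p: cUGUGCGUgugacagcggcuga
miR-101a-3p: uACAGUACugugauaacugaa
miR-101b-3p: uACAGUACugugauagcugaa

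The last set holds blood-cell miRNAs and miRNAs of an X-linked cluster, which were higher in OIR.
miR-142-3p: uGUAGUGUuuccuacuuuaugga
miR-142-5p: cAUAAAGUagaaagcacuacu
miR-144-3p: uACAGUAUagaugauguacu
miR-451-5p: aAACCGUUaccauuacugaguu
miR-322-5p: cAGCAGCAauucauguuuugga
miR-503-5p: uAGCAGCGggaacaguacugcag
miR-542-3p: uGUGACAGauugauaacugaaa

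The OIR library was the shallowest of the 12, with 11081697 total reads and 6994293 miRNA UMIs, against 17903533 and 12199511 in CTL. A level is given as UMIs per 1000000 miRNA UMIs (RPM), so that 10 UMIs, the listing limit, stood at 1.43 RPM in OIR and 0.820 RPM in CTL. Reads with a defective UMI took 8.34% of the OIR library and 3.56% of the CTL library, against 1.68% to 6.40% in the other 10, and the share in OIR was above that of the other 11. Reads assigned to miRNAs made up 70.1% in OIR and 76.8% in CTL. The part of these differences in the results was not tested. Photoreceptor miRNAs summed to 374469 RPM in OIR and 344953 RPM in CTL, and miR-182 of photoreceptors and miR-9a-5p of neurons held the first 2 places in both libraries. Together these 2 miRNAs took 43.5% of the miRNA UMIs in OIR and 36.2% in CTL.

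The files list 574 miRNAs in OIR and 643 in CTL, 648 in either, of which 587 were matched to a RefSeq sequence. Each OIR to CTL ratio of RPM is given with its 95% interval, which reflects the counting of UMIs and no other error. A miRNA was called higher above 1.2 and lower below 0.8 where the interval excluded 1. Of the 547 miRNAs that reached 20 UMIs in OIR or CTL, 114 were higher (20.8%) and 128 lower (23.4%) in OIR, with a median log2 ratio of -0.04. Among the 69 miRNAs with a mean of at least 1000 RPM, 12 were higher (17.4%) and 26 lower (37.7%), so that lower calls were the more frequent among abundant miRNAs. This split depends on the scaling, since with miR-182 left out of the total, an alternative chosen after seeing the data, 20 were higher and 18 lower, and with total reads 9 were higher and 31 lower. Between 100 and 1000 RPM the calls were near balance, with 32 of 111 higher (28.8%) and 28 lower (25.2%). Between 10 and 100 RPM, 43 of 184 were higher (23.4%) and 55 lower (29.9%). Among the 295 miRNAs of 10 to 1000 RPM, 8 were above 2 (2.71%) and 16 below 0.5 (5.42%). Below 10 RPM, 32 of 284 were higher (11.3%) and 19 lower (6.69%), in a tier where 74 miRNAs were listed in CTL only and 5 in OIR only. Since the deeper library lists more of the rare miRNAs, the balance of that last tier cannot be told apart from depth. The 1 miRNA with at least 30 UMIs in a library and unlisted in the other was miR-344b-5p, which had 33 UMIs in CTL.

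**Figure D1:**
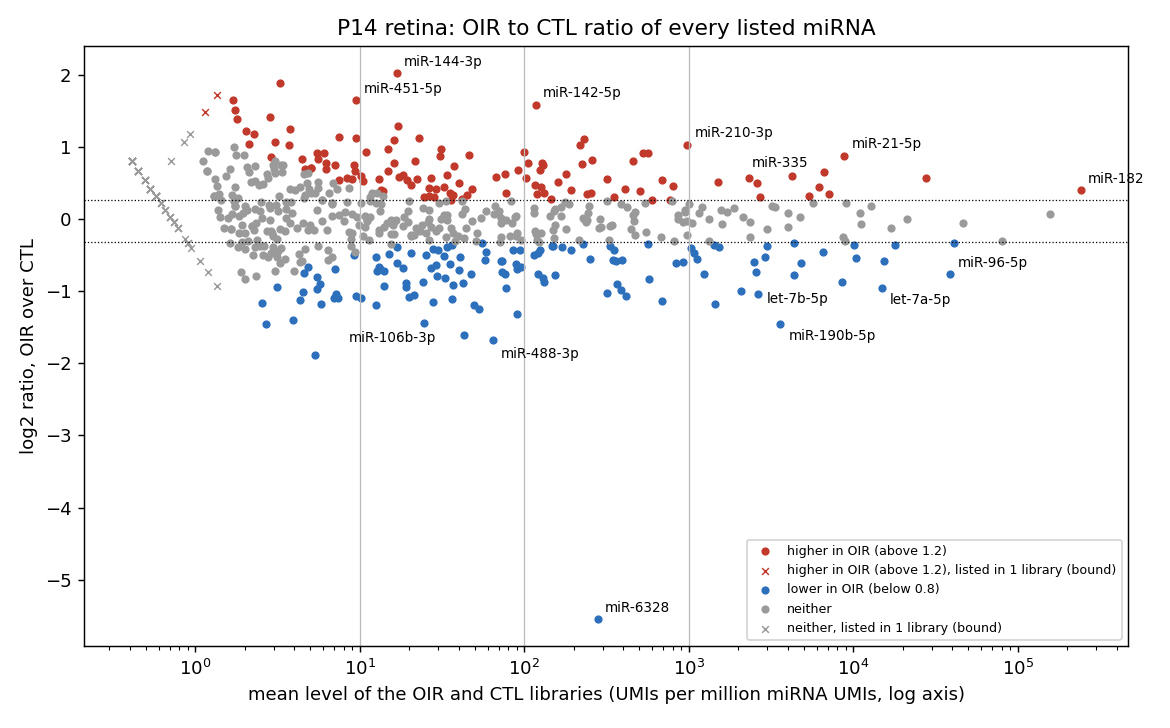
Log2 OIR to CTL ratio (vertical) of every listed miRNA against its mean RPM (horizontal, log axis), 1 pool a side, with dotted lines at ratios of 1.2 and 0.8 and grey lines at 10, 100 and 1000 RPM. Red points were higher and blue points lower in OIR, crosses are bounds for miRNAs listed in 1 library, and miR-6328 stands apart at the bottom with a ratio of 0.0214.

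The let-7 family was lower throughout in OIR. Its 9 members, which share the seed printed above, had ratios of 0.485 to 0.793 (9 of 9 lower, median log2 ratio -0.74, against -0.04 over all miRNAs), and their summed level was 71175 RPM in OIR and 104679.6 RPM in CTL. let-7a-5p stood at 10212 RPM in OIR and 19723 RPM in CTL, a ratio of 0.518 (0.513 to 0.522). let-7b-5p, which had the lowest ratio of the family, stood at 1725 RPM in OIR and 3554 RPM in CTL (0.485, 0.476 to 0.495). let-7f-5p, the most abundant member, had the ratio nearest to 1, with 36167 RPM in OIR and 45604 RPM in CTL (0.793, 0.789 to 0.797). The less abundant miR-98-5p was at 258 RPM in OIR and 512 RPM in CTL (0.505, 0.479 to 0.532). Over all miRNAs 23.4% were lower. With miR-182 left out of the total, 8 of the 9 were lower. Members of the family differ at few bases, and how reads were shared among them is uncertain.

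The other arms of the same hairpins were mixed. Of 10 minor-arm entries with at least 20 UMIs, 3 were lower and 1 higher, beside 23.4% and 20.8% of all miRNAs. Their median log2 ratio was -0.19. The lower ones were let-7b-3p (0.580, 0.480 to 0.698), let-7c-1-3p (0.623, 0.490 to 0.787) and let-7e-3p (0.706, 0.503 to 0.978), and in let-7b and let-7e the share of the minor arm was called neither way. let-7d-3p was the higher one, with 1323 UMIs in OIR and 1618 UMIs in CTL, a ratio of 1.43 (1.33 to 1.53), while let-7d-5p from the same hairpin was at 0.681 (0.661 to 0.701). The entry shared by let-7a-1-3p and let-7c-2-3p was at 1.01 (0.946 to 1.07). miR-125a-5p (0.656) and miR-125b-5p (0.777), which are encoded beside let-7 members, were lower, whereas miR-100-5p was at 1.21, a call that was lost with TMM and with total reads, and miR-99a-5p and miR-99b-5p were called neither way, at 0.970 and 1.12.

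miR-3596a, miR-3596b, miR-3596c and miR-3596d are annotated opposite let-7a, let-7d, let-7e and let-7f, and each RefSeq sequence is the reverse complement of part or all of its partner. Their ratios lay close to those of their partners. miR-3596a was at 0.563 beside 0.518 for let-7a-5p, and miR-3596b at 0.591 beside 0.681 for let-7d-5p. miR-3596c was at 0.593 beside 0.600 for let-7e-5p, and miR-3596d at 0.807 beside 0.793 for let-7f-5p. The files do not show whether strand was used when these entries were counted, so reads of the 2 strands cannot be told apart here.

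The photoreceptor cluster, whose members are cut from 1 primary transcript, did not change as a unit. miR-182 stood at 273795 RPM in OIR and 207468 RPM in CTL (1.32), miR-183-5p at 71556 RPM in OIR and 88464 RPM in CTL (0.809, 0.806 to 0.812), and miR-96-5p at 28843 RPM in OIR and 48766 RPM in CTL (0.591, 0.588 to 0.594). miR-182 was thus higher, miR-96-5p lower and miR-183-5p called neither way, although it lay close to the threshold of 0.8. With reads in place of UMIs, with TMM and with total reads, 2 of the 5 entries of the cluster were lower, in place of 1. Over all miRNAs, the main scaling called 23.4% lower and 20.8% higher. The minor arm miR-96-3p was higher, with 328 UMIs in OIR and 342 UMIs in CTL (1.67, 1.43 to 1.95). miR-182 took the largest share of both libraries, so its level bears on the scale of the others. Without it in the total, the median log2 ratio of all miRNAs moved by 0.13.

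Of 12 neuronal miRNAs, 6 were lower and 1 higher in OIR, with a median log2 ratio of -0.21, where 23.4% of all miRNAs were lower and 20.8% higher. With miR-182 left out of the total 5 were lower and 3 higher, and with total reads 6 were lower and none higher. miR-124-3p, the classical neuronal miRNA, stood at 3218 RPM in OIR and 5500.4 RPM in CTL (0.585, 0.576 to 0.594), and its minor arm miR-124-5p was lower as well (0.665). miR-138-5p, known in rat neurons to restrain dendritic spine growth, was at 0.537, miR-137-3p at 0.667 and miR-129-5p at 0.722. miR-153-3p was the member that was higher, at 1.24 (1.18 to 1.30). miR-9a-5p, the most abundant of the list, was at 1.05 (1.04 to 1.05), while the 3p arm miR-9a-3p was lower at 0.784 (0.776 to 0.791).

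miR-190b-5p had the lowest ratio of the abundant miRNAs, with 1914 RPM in OIR and 5239.6 RPM in CTL (0.365, 0.359 to 0.372). Its minor arm followed it, since miR-190b-3p had 16 UMIs in OIR and 103 UMIs in CTL (0.271, 0.149 to 0.461). In CTL retinas miR-190b-5p stood at 1873 RPM at P7, 5239.6 RPM at P14 and 6936 RPM at P17, whereas in OIR retinas it stood at 2189.6, 1914 and 2161 RPM at these ages. The 3 OIR libraries thus lay close to the CTL library of P7, below the CTL libraries of P14 and P17. miR-135a-5p (887 RPM in OIR, 1999 RPM in CTL, 0.444) and the smooth muscle miR-143-3p (1396 RPM in OIR, 2782 RPM in CTL, 0.502) came next.

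At the other end of the abundant miRNAs, miR-21-5p, known to be induced in injured and inflamed tissue, stood at 11457 RPM in OIR and 6222 RPM in CTL (1.84, 1.82 to 1.86). Its minor arm miR-21-3p was higher too, with 170 UMIs in OIR and 121 UMIs in CTL (2.45, 1.93 to 3.12). miR-335, which lies in an intron of the imprinted gene Mest, stood at 8080.4 RPM in OIR and 5134 RPM in CTL (1.57, 1.56 to 1.59). miR-101a-3p and miR-101b-3p, whose seed is the same, were higher at 1.49 and 1.25, and miR-130a-3p, miR-130b-3p and miR-301b-3p, which share the seed AGUGCAA, were higher at 1.43, 1.27 and 1.29. miR-301a-3p, for which no seed is given here, was higher at 1.42. The injury-responsive list had 3 of 5 members higher and none lower, beside 20.8% and 23.4% of all miRNAs. Both arms of miR-21 are among the higher members, and the list's median log2 ratio of 0.88 is the value of miR-21-5p.

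The miR-30 family was mixed, with a median log2 ratio of 0.09. miR-30b-5p (5099 RPM in OIR, 3369.7 RPM in CTL, 1.51) and miR-30c-5p (7947 RPM in OIR, 6223 RPM in CTL, 1.28) were higher, and miR-30a-5p, miR-30d-5p and miR-30e-5p were called neither way, at 0.952, 1.07 and 0.917. From the minor arms, miR-30e-3p (1.48) and miR-30a-3p (1.37) were higher and miR-30c-2-3p was lower (0.649). The miR-181 family, at 0.742 to 0.970, had 3 of 4 members lower, and the p53-linked miR-34 family, counted with its relative miR-449a-5p, likewise had 3 of 4 lower, at 0.622 to 0.995. Of all miRNAs, 23.4% were lower. With miR-182 left out of the total, none of the miR-181 members and 2 of the miR-34 members were lower. In the miR-26 family, miR-26a-5p was lower at 0.672 (0.667 to 0.677) while miR-26b-5p, which has the same seed, was at 1.00 (0.996 to 1.01).

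Below 1000 RPM, miR-6328 differed more than any other miRNA in the pair. It had 82 UMIs in OIR and 6681 UMIs in CTL, or 11.7 and 548 RPM, a ratio of 0.0214 (0.0170 to 0.0266). In GRCr8 its gene lies within Ppp1r18 on chromosome 20, and no role is given to it here. The retina pairs of the other ages went the same way, with 60.2 RPM in OIR and 366 RPM in CTL at P7, and 4.93 RPM in OIR and 173 RPM in CTL at P17. In the choroid it stood at 143 RPM in OIR and 476 RPM in CTL at P7. In the P14 choroid its level was 691 RPM in OIR and 875 RPM in CTL, and in the P17 choroid it was 6.72 RPM in OIR and 496 RPM in CTL. The OIR level was thus lower by more than 3-fold in 5 of the 6 pairs of the series, the P14 choroid being the exception. Reads of Ppp1r18 and of the miRNA cannot be told apart here, and since whole litters were raised in cycling oxygen, neither can litter and treatment.

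Several miRNAs with a mean below 1000 RPM that stood higher in OIR are known from hypoxia and from white blood cells. miR-210-3p stood at 1319 RPM in OIR and 643 RPM in CTL (2.05, 1.99 to 2.11), and miR-210-5p had 55 UMIs in OIR and 51 UMIs in CTL (1.88, 1.26 to 2.81). In the other retina libraries, miR-210-3p stood at 1146 RPM in OIR and 1023 RPM in CTL at P7, and at 1288 RPM in OIR and 843 RPM in CTL at P17. miR-142-5p was at 175 RPM in OIR and 58.3 RPM in CTL (3.01, 2.74 to 3.30), and miR-142-3p from the same hairpin at 738 RPM in OIR and 389.8 RPM in CTL (1.89, 1.82 to 1.97). miR-223-3p, the myeloid miRNA, was at 41.3 RPM in OIR and 21.0 RPM in CTL (1.97, 1.66 to 2.34). Not all of the leukocyte list went this way, since miR-150-5p, known from mature lymphocytes, was at 31.5 RPM in OIR and 74.3 RPM in CTL (0.424, 0.364 to 0.491), and miR-146b-5p was at 0.584. Of its 7 members 3 were higher and 2 lower, beside 20.8% and 23.4% of all miRNAs. The list had a median log2 ratio of 0.26 and summed to 1481 RPM in OIR and 1066 RPM in CTL.

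The erythroid list, which holds 4 miRNAs and leaves out the minor arm miR-451-3p, had 4 of 4 higher in OIR, at a low level. Beside this and the other list counts of this paragraph, 20.8% of all miRNAs were higher and 23.4% lower. miR-144-3p was at 27.0 RPM in OIR and 6.64 RPM in CTL (4.07, 3.12 to 5.35), and miR-451-5p, encoded beside it, had 101 UMIs in OIR and 56 UMIs in CTL (3.15, 2.25 to 4.44). miR-144-5p (1.71) and miR-486 (1.26) completed the list, whose median log2 ratio was 1.21 and whose sum was 103 RPM in OIR and 55.7 RPM in CTL. miR-451-3p went the other way and was lower, with 26 UMIs in OIR and 89 UMIs in CTL (0.510, 0.316 to 0.796). Scaled to total reads, 3 of the 4 were higher. The lists of other tissues had medians nearer to 0, from -0.42 to 0.07. The mesenchymal and mural list summed to 2817 RPM in OIR and 4233 RPM in CTL with 2 of 8 members lower and none higher, the endothelial list to 11388 RPM in OIR and 12451 RPM in CTL with 1 of 5 higher and 1 lower, and the pigment epithelium list to 10406 RPM in OIR and 13355 RPM in CTL with 2 of 4 lower. The surface epithelium list, which marks cornea, lens and conjunctiva, summed to 1177 RPM in OIR and 1809 RPM in CTL, with 2 of 8 members higher and 2 lower. That balance was lost with TMM, at 1 higher and 3 lower, and with total reads, at none higher and 4 lower. The part of such cells in the results was not tested, and in pooled tissue fewer cells of a type and less RNA per cell cannot be told apart.

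**Figure D2:**
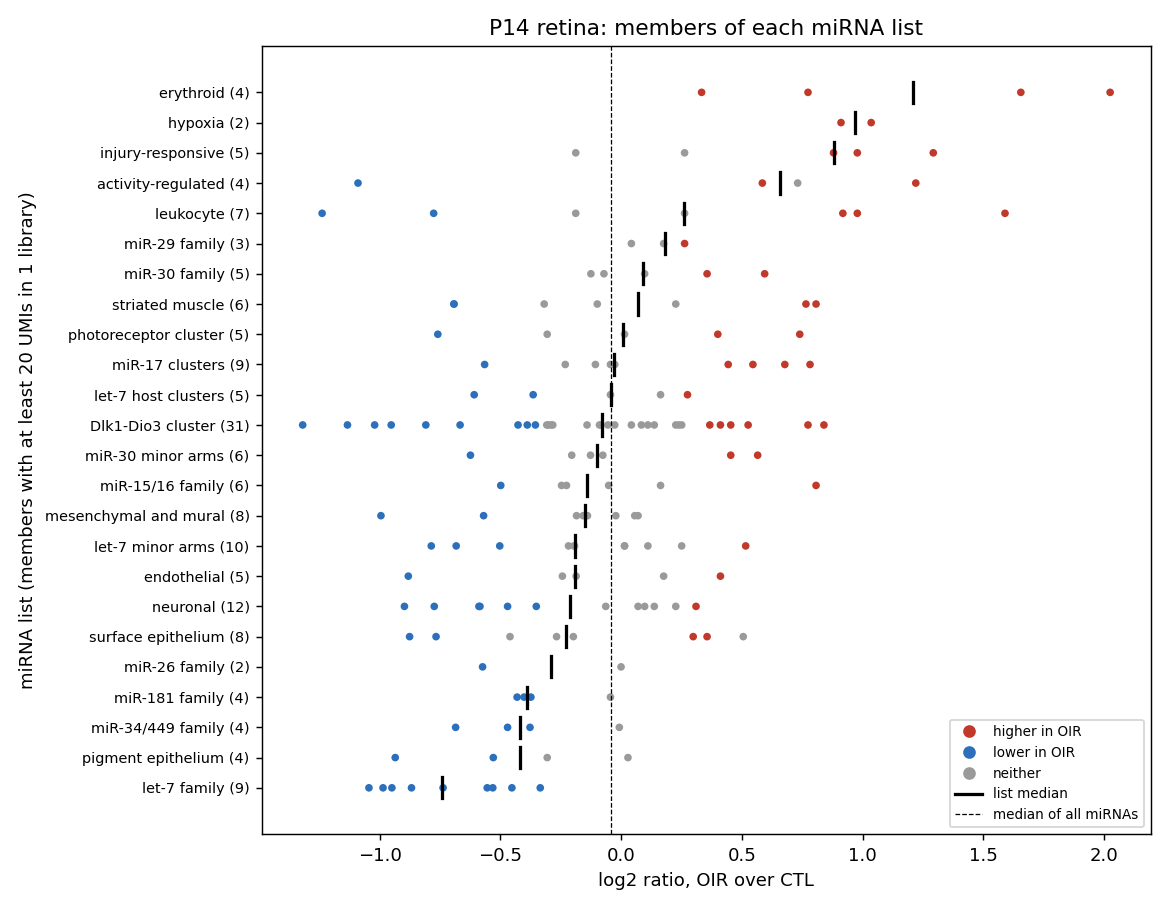
Log2 OIR to CTL ratio (horizontal) of the members of the 24 miRNA lists (rows, number of members with at least 20 UMIs in parentheses), 1 pool a side, with each list's median as a bar and the median of all miRNAs, -0.04, as a dashed line. The 4 erythroid members, among which miR-451-3p is not counted, lie to the right of that line and all 9 let-7 members to the left, while most other lists have members on both sides.

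An X-linked cluster was higher almost throughout. It had the highest median log2 ratio, 0.76, of the clusters joined within 10 kb, and was named after those values were seen. Of all miRNAs, 20.8% were higher. Among its 9 entries, miR-322-5p, miR-322-3p, miR-351-5p, miR-450a-3p, the shared entry of miR-450a-5p and miR-450b-5p, miR-503-5p, miR-503-3p and miR-542-3p were higher, at 1.49 to 2.18, and miR-542-5p was at 0.972. miR-542-3p stood at 686 RPM in OIR and 363 RPM in CTL (1.89, 1.81 to 1.97) and miR-322-5p, the rat counterpart of miR-424 and a regulator of cell cycle genes, at 583 RPM in OIR and 332 RPM in CTL (1.75, 1.68 to 1.83). miR-503-5p was at 31.3 RPM in OIR and 14.3 RPM in CTL (2.18, 1.78 to 2.68). At P17 these 3 were higher as well (1.84, 1.53 and 1.74), and at P7 they were lower (0.399, 0.457 and 0.210).

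The cell cycle-related miR-17 clusters were mixed. miR-17-5p (1.72), miR-19a-3p (1.46), miR-19b-3p (1.36) and miR-106b-5p (1.60) were higher and miR-20a-5p was lower (0.676), although miR-17-5p, miR-20a-5p and miR-106b-5p carry the seed AAAGUGC. Other mid-level miRNAs at the upper end were miR-151-5p (314 RPM in OIR, 146 RPM in CTL, 2.15), miR-374-5p (291 RPM in OIR, 143 RPM in CTL, 2.03), miR-27a-3p (1.76) and miR-324-5p (1.71). In the cluster of miR-27a the other arm, miR-27a-5p, was higher as well, with 20 UMIs in OIR and 17 UMIs in CTL (2.05, 1.02 to 4.17), while miR-23a-3p was at 1.13 and miR-24-3p at 1.05. In the tier of 10 to 100 RPM, miR-582-5p was at 2.15 (1.69 to 2.74).

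The lower end of the mid-level miRNAs held many members of the imprinted Dlk1-Dio3 region, a large group of miRNAs expressed in brain and placenta. miR-434-3p stood at 429 RPM in OIR and 941 RPM in CTL (0.456, 0.438 to 0.475), miR-341 at 267 RPM in OIR and 559 RPM in CTL (0.477), and miR-300-3p at 211 RPM in OIR and 428 RPM in CTL (0.493). miR-381-3p (0.401) and miR-431 (0.571) were lower as well. The region did not change as a whole, since of 31 members 9 were lower and 6 higher, beside 23.4% and 20.8% of all miRNAs. Its median log2 ratio was -0.08, near the -0.04 of all miRNAs. With total reads 13 were lower and 4 higher, and with miR-182 left out of the total 6 were lower and 7 higher. miR-136-5p (1.33) and miR-485-5p (1.37) were among the higher ones. Outside the region, miR-185-5p (0.547), miR-488-3p (30.7 RPM in OIR, 98.5 RPM in CTL, 0.312), miR-879-3p (0.367) and miR-106b-3p (0.329) were lower.

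The activity-regulated pair, miR-132 and miR-212, which are transcribed under CREB in neurons, had few UMIs. miR-132-3p had 565 UMIs in OIR and 658 UMIs in CTL (1.50, 1.34 to 1.68), and miR-212-3p had 20 UMIs in OIR and 15 UMIs in CTL (2.33, 1.13 to 4.88). miR-132-5p went the other way, with 31 UMIs in OIR and 115 UMIs in CTL (0.470, 0.306 to 0.704). The list median of 0.66 turned to -0.25 with a floor of 100 UMIs, which leaves the arms of miR-132.

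The same miRNAs were set beside the pairs of the other ages, without a test of the difference. Of all 69 abundant miRNAs, 13 were higher (18.8%) and 18 lower (26.1%) in the P7 retina pair, and 11 were higher (15.9%) and 15 lower (21.7%) in the P17 retina pair. Of the 12 abundant miRNAs higher at P14, 7 were higher and 2 lower in the P7 retina pair, and 5 were higher and none lower in the P17 retina pair. Of the 26 lower at P14, 3 were higher and 10 lower at P7, and 2 were higher and 13 lower at P17. miR-21-5p was at 0.744 at P7 and 1.08 at P17, so that its ratio was well above 1 at P14 alone among the retina pairs. miR-335 was at 0.870 at P7 and 1.51 at P17, and let-7a-5p at 0.747 at P7 and 0.770 at P17. The let-7 family had median log2 ratios of -0.42 at P7, -0.37 at P17 and -0.55 in the P14 choroid pair. Those of all miRNAs were -0.18, -0.09 and -0.44.

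**Figure D3:**
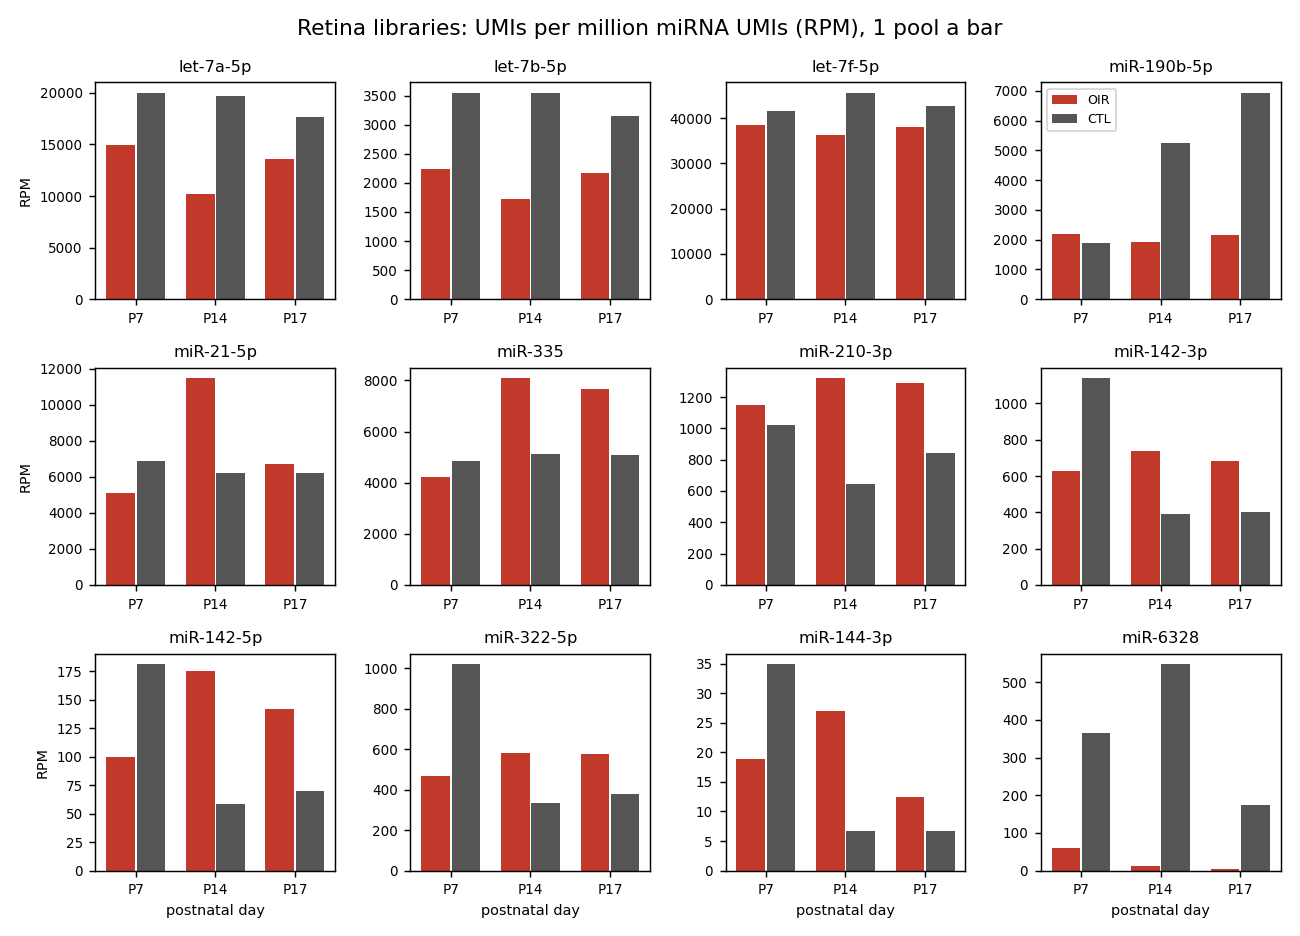
Level in RPM (vertical, each panel with its own scale from 0) of 12 miRNAs in the retina libraries at P7, P14 and P17 (horizontal), with OIR in red and CTL in grey, 1 pool a bar. miR-190b-5p stands between 1914 and 2189.6 RPM in the OIR bars at all ages, and miR-21-5p reaches 11457 RPM in the P14 OIR bar.

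The 2 arms of a hairpin share its scaling, so the share of UMIs on the minor arm does not depend on the total of the library. In the 165 hairpins with both arms listed and at least 100 UMIs over both arms in each library, the minor arm had higher odds in OIR in 55 (33.3%) and lower odds in 21 (12.7%), with a median odds ratio of 1.16. A minor arm must be listed to be counted, and the listing limit stood higher in OIR. With at least 100 UMIs on the minor arm in CTL, an alternative chosen after seeing the data, 92 hairpins remained, of which 36 were higher and 20 lower, with a median of 1.13. In the P7 and P17 retina pairs the median was 1.03 and 1.02, and in the P14 choroid pair it was 0.855, where 21 of 215 were higher and 69 lower. The part of the differing library quality in these shares was not tested.

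Some hairpins changed which arm led. In miR-451 the 3p arm took 20.5% of the UMIs in OIR (26 of 3p and 101 of 5p) and 61.4% in CTL (89 of 3p and 56 of 5p), an odds ratio of 0.162 (0.0901 to 0.288). In miR-144 the 5p arm took 43.1% in OIR and 64.3% in CTL, an odds ratio of 0.420 (0.292 to 0.603). The P7 retina pair did not show the same, with odds ratios of 2.92 (1.89 to 4.52) for miR-451 and 1.22 (0.944 to 1.57) for miR-144, and the P14 choroid pair was at 0.953 and 1.03. miR-106b-3p took 12.2% of its hairpin in OIR and 40.4% in CTL (0.205, 0.168 to 0.249), and its odds ratio was 0.451 in the P7 retina, 0.607 in the P17 retina and 0.582 in the P14 choroid pair. The minor arms of miR-151 (1.48% in OIR, 6.47% in CTL, 0.217) and miR-132 (5.20% in OIR, 14.9% in CTL, 0.314) completed the lower end. In the P7 and P17 retina pairs miR-151 was at 0.867 (0.697 to 1.08) and 0.694 (0.527 to 0.911), and miR-132, whose intervals included 1, at 1.28 and 0.884. In the P14 choroid pair miR-151 was at 0.563 (0.447 to 0.707) and miR-132 at 1.07 (0.718 to 1.60). At the other end, miR-330-3p took 38.2% in OIR and 13.0% in CTL (4.12, 2.91 to 5.82), and its odds ratio was 2.63 in the P7 and 1.76 in the P17 retina pair but 0.580 (0.387 to 0.862) in the P14 choroid pair. The minor arms of miR-363 (13.4% in OIR, 2.83% in CTL, 5.31), miR-185 (5.08% in OIR, 1.42% in CTL, 3.72), miR-154 (5.92% in OIR, 2.08% in CTL, 2.96) and miR-488 (9.28% in OIR, 3.38% in CTL, 2.93) also had higher odds. In the P7 and P17 retina pairs miR-363 was at 1.07 and 1.78, miR-185 at 0.990 and 0.797, miR-154 at 1.35 and 0.803, and miR-488 at 0.711 and 2.39. In the P14 choroid pair these 4 were at 0.728, 0.875, 0.864 and 0.368. The intervals of miR-185 and miR-154 included 1 in each of these other pairs. Those of miR-363 and miR-488 did so at P7, and that of miR-363 in the choroid. Each of these 4 rests on 72 or fewer minor-arm UMIs a library.

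**Figure D4:**
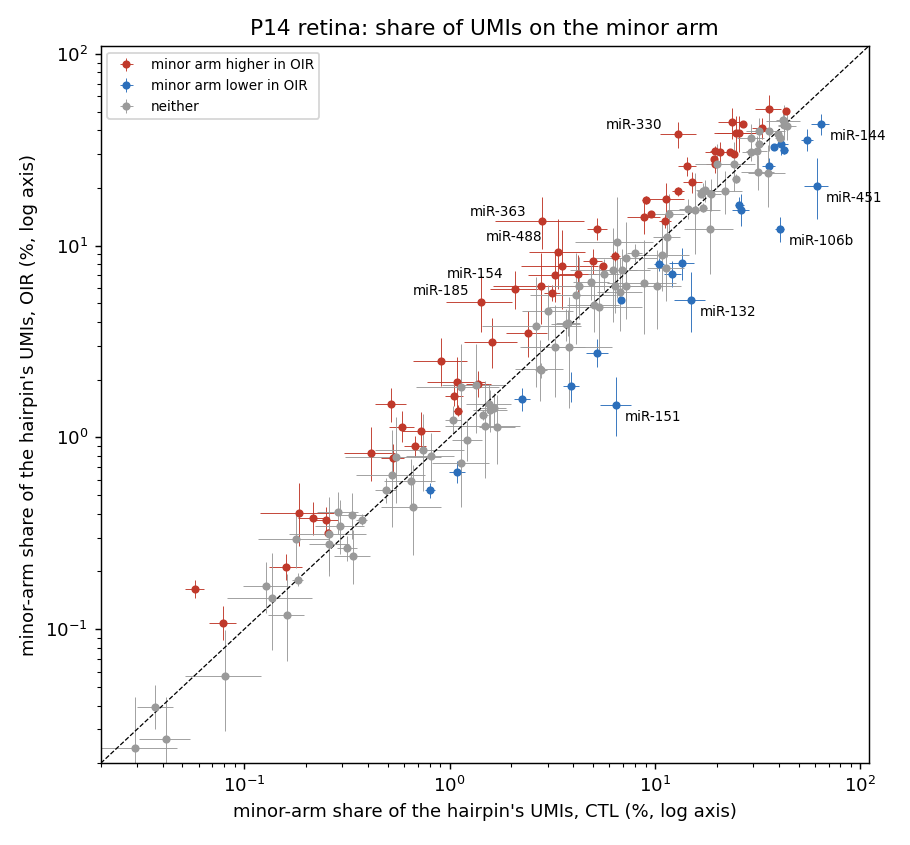
Share of a hairpin's UMIs on its minor arm in OIR (vertical) against CTL (horizontal), in percent on log axes, for 165 hairpins, with exact 95% binomial intervals and the line of equal shares dashed. Red points (55) had higher and blue points (21) lower odds of the minor arm in OIR, and miR-151, miR-106b and miR-330 lie far from the line.

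Transfer RNAs carry amino acids to the ribosome, and libraries of small RNA catch mostly fragments of them. tRNA features held 44244 UMIs in OIR and 91696 UMIs in CTL, a ratio to miRNA UMIs of 0.842 (0.832 to 0.851), with 232 features listed in OIR and 291 in CTL. The difference was not even among them. Of the 291 features, 127 were lower (43.6%) and 5 higher (1.72%). Summed by amino acid and anticodon, 30 of the 40 groups listed in both libraries with at least 100 UMIs in 1 of them were lower and 1 was higher, while AlaCGC was unlisted in OIR and had 137 UMIs in CTL. In these sums an unlisted feature counted as 0, and 59 features were listed in CTL only and 0 in OIR only. The sums thus lean towards lower ratios, and some lower calls may rest on the listing limit. PheGAA was called lower at 0.567, although its only feature listed in OIR was at 0.997 (0.695 to 1.42). The higher group was AspGTC, with 8624 UMIs in OIR and 12045 UMIs in CTL (1.25, 1.21 to 1.28), and GlyGCC, the most abundant, had 13600 UMIs in OIR and 20850 UMIs in CTL (1.14, 1.11 to 1.16). Together they took a larger part of the tRNA UMIs, with 30.7% and 19.5% in OIR for GlyGCC and AspGTC, against 22.7% and 13.1% in CTL. Scaled to total reads, AspGTC was at 1.16 and GlyGCC at 1.05, so that no group was called higher.

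Among the lower groups, ValCAC had 863 UMIs in OIR and 3435 UMIs in CTL (0.438, 0.406 to 0.472) and GluCTC 610 UMIs in OIR and 2540 UMIs in CTL (0.419, 0.383 to 0.458). LysCTT was at 0.531 (0.499 to 0.564) while LysTTT, for the same amino acid, was at 0.799 (0.770 to 0.829). The arginine group ArgCCT, with 72 UMIs in OIR and 610 UMIs in CTL (0.206, 0.159 to 0.263), and the serine group SerAGA, with 22 UMIs in OIR and 190 UMIs in CTL (0.202, 0.124 to 0.315), were at the lower end. Both groups hold features that were unlisted in OIR and counted as 0, so their intervals do not cover the listing limit. The SerAGA feature listed in both libraries was at 0.309 (0.187 to 0.490). Copies of a tRNA are near-identical, so the split of UMIs among features of a group is uncertain. Among features with at least 100 UMIs, 2 that carry a transcript ID in place of an anticodon had the highest ratios, at 1.68 and 1.60. A GlyGCC gene of chromosome 13 (6349 UMIs in OIR, 7679 UMIs in CTL, 1.44) and an AspGTC gene of chromosome 7 (6908 UMIs in OIR, 8393 UMIs in CTL, 1.44) were higher as well, as the files name them. An ArgCCT gene of chromosome X had 17 UMIs in OIR and 207 UMIs in CTL (0.143, 0.0819 to 0.235). GlyGCC was at 0.458 in the P7 and 0.819 in the P17 retina pair, and AspGTC at 1.31 and 0.918.

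**Figure D5:**
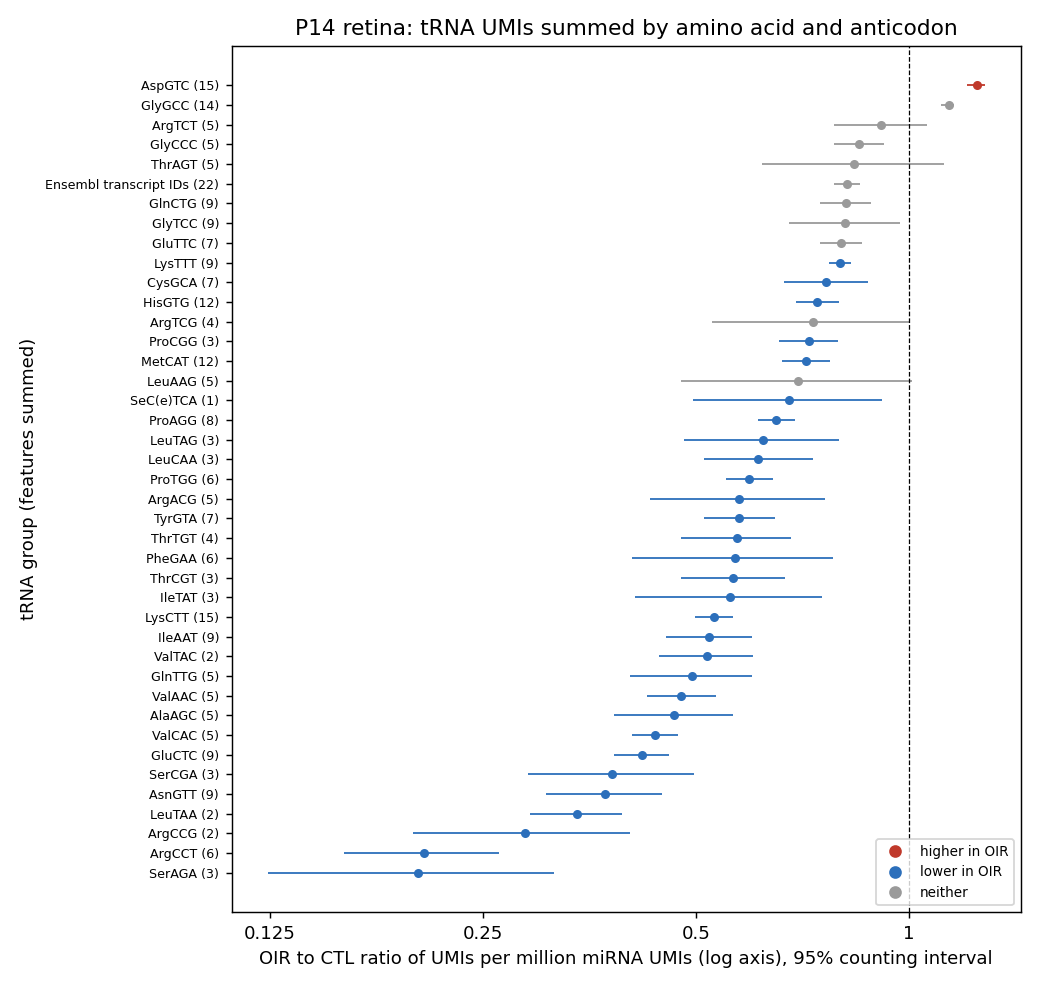
OIR to CTL ratio of RPM (horizontal, log axis) of tRNA groups (rows, number of features in parentheses), with exact 95% counting intervals and a dashed line at 1. AspGTC at 1.25 and GlyGCC at 1.14 lie to the right of the line, and the other groups lie to its left, down to SerAGA at 0.202. Features unlisted in OIR counted as 0 in these sums, which the intervals do not cover.

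Piwi-interacting RNAs (piRNAs) guard the germ line against transposons, and whether the entries found in these retinas are piRNAs or fragments of other RNAs was not tested. They held 14312 UMIs in OIR and 27022 UMIs in CTL, a ratio of 0.924 (0.905 to 0.943), with 63 entries listed in OIR and 74 in CTL. Of 78 entries listed in either, 14 were higher (17.9%) and 18 lower (23.1%). The most abundant, rno_piR_004288, had 2015 UMIs in OIR and 3353 UMIs in CTL, a ratio of 1.05 (0.991 to 1.11) that included 1. rno_piR_000552 (3.30, 2.52 to 4.35), rno_piR_005556 (3.18, 2.61 to 3.88) and rno_piR_005787 (2.40, 1.99 to 2.90) were at the upper end, with 159, 290 and 271 UMIs in OIR and 84, 159 and 197 UMIs in CTL. rno_piR_000821 had 1232 UMIs in OIR and 1308 UMIs in CTL (1.64, 1.52 to 1.78). At the lower end, rno_piR_001199 had 123 UMIs in OIR and 570 UMIs in CTL (0.376, 0.307 to 0.458) and rno_piR_005901 had 365 UMIs in OIR and 1472 UMIs in CTL (0.432, 0.385 to 0.485). Single entries thus went both ways, around a total whose ratio to miRNA UMIs was 0.924.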

How the data were processed

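Small RNA of 2 P14 retina libraries, 1 pool of 5 retinas each, was compared, with the other 10 libraries used beside them. The authors deposited counts, not normalized: reads per RNA class and, per feature with at least 10 UMIs, its UMIs and reads. According to the submitters' processing notes, bases were called with bcl2fastq 2.20, adapters trimmed with cutadapt and reads aligned with Bowtie to Rnor 6.0, with no settings given. The library kit is QIAseq miRNA in the labels but TruSeq Small RNA in the methods of the study. Entries of other RNAs were not used. Differing capture of sequences by ligation, shared reads of near-identical miRNAs and the listing limit can all move a ratio.

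UMIs were scaled to 1000000 miRNA UMIs. Ratios have exact conditional 95% intervals (Clopper-Pearson), and features below the listing limit entered at 10 UMIs, which gives a bound. In sums over features, such as those of tRNA groups, they counted as 0, which gives no bound. Arm odds ratios have exact conditional intervals, or Woolf intervals on the log scale at 2000 or more minor-arm UMIs. Class shares of reads are percentages of total reads. Clusters join GRCr8 loci within 10 kb of each other. Intervals cover counting error only.

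The named miRNAs are members of 24 lists and, with an interval excluding 1, the 10 highest and 10 lowest ratios at 1000 RPM or more and at 100 to 1000 RPM, and the 5 and 5 at 10 to 100 RPM. They further include the 5 hairpins at each end of the arm odds, the 5 piRNAs and 5 tRNA features at each end with at least 100 UMIs, and miRNAs of at least 30 UMIs unlisted in the other library. Comparison, members and lists were chosen with earlier results of these data known. Other names were chosen after their values were seen. List medians use members with at least 20 UMIs in 1 library. Alternatives were reads in place of UMIs, TMM (edgeR 4.0.16), DESeq2 1.42.0 size factors, total reads, tiers by CTL, stricter thresholds and other floors. TMM and DESeq2 were used for scaling only, with no test. Python 3.11.15, numpy 2.4.6, scipy 1.17.1, matplotlib 3.10.9 and R 4.3.3 were used, and the ratio and arm calculations were tested on simulated data.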

Additional observations from a re-analysis of the deposited data

Results flagged for a closer look

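The erythroid list had a median log2 ratio of 1.21 in the P14 retina pair and of -0.75 in the P7 retina pair, so its direction differed between the ages. The injury-responsive list likewise had a median of 0.88 at P14 and of -1.60 at P7. Both arms of miR-21 are among its members, and its median at P14 is the value of miR-21-5p. With 1 pool a side, neither difference between the ages was tested. In the P7 retina pair the mesenchymal and mural list was at -3.04, the striated muscle list at -3.09 and the surface epithelium list at -1.98, against -0.15, 0.07 and -0.23 at P14, and the part of these other tissues in the values at P7 was not tested. In the P17 retina pair the erythroid list was at 0.10 and the injury-responsive list at 0.72.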

How the results depend on the processing

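With 1 pool a side no call rests on replicates, and depth limits rare features, since 10 UMIs stood at 1.43 RPM in OIR and 0.820 RPM in CTL. No paired analysis was possible because each group holds 1 library. Of 50 named miRNA ratios, none reversed under reads, TMM, DESeq2 size factors, total reads or a total without miR-182, which was chosen after seeing the data. However, 33 moved outside their counting interval with total reads and 35 without miR-182, beside 11 with TMM and 3 with reads. Of the 23 other list medians, the activity-regulated one reversed to -0.25 with a floor of 100 UMIs. With total reads 12 of these medians moved beyond the medians of their interval bounds, and without miR-182 12 did so. With total reads, the let-7 median was -0.85, the tRNA ratio 0.780, the piRNA ratio 0.856, and 4 miRNAs of 10 to 1000 RPM were above 2, in place of 8. Without miR-182 the let-7 median was -0.61, 20 abundant miRNAs were above 1.2 and 18 below 0.8 in place of 12 and 26, and between 10 and 1000 RPM 15 were above 2 and 10 below 0.5, in place of 8 and 16. With the whole interval past the threshold, 3 were above 2 and 7 below 0.5. With at least 100 UMIs on the minor arm in CTL, 36 of 92 hairpins had higher odds of the minor arm, in place of 55 of 165. The shift of the median log2 ratio of all miRNAs was -0.03 with TMM, 0.00 with DESeq2 size factors, -0.11 with total reads and 0.13 without miR-182.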

Other observations

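Striated muscle miRNAs, of which 6 entries had at least 20 UMIs, went both ways in the P14 retina. miR-1-3p (192 UMIs in OIR, 191 UMIs in CTL, 1.75) and the near-identical miR-1b (1985 UMIs in OIR, 2037 UMIs in CTL, 1.70) were higher, the shared entry of miR-133a-3p and miR-133b-3p (71 UMIs in OIR, 200 UMIs in CTL, 0.619) was lower, and miR-499-5p was at 1.17. The list median was 0.07. The miR-29 family, known to restrain collagen genes, had 1 of 3 members higher, miR-29b-3p with 4536 UMIs in OIR and 6586 UMIs in CTL and a ratio close to the threshold, and a median of 0.18. With TMM or total reads none of the 3 was higher. Over all miRNAs, the main scaling called 20.8% higher and 23.4% lower. In the miR-15/16 family, miR-322-5p (1.75) was higher, miR-195-5p (0.708) lower, and the abundant miR-16-5p was at 0.965, with a list median of -0.14.

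Surface epithelium miRNAs also parted, with miR-203a-3p (1.28) and miR-141-3p (1.23) higher and miR-184 (0.588) and miR-205 (0.545) lower, although with total reads none of that list was higher. In the endothelial list, miR-126a-3p stood at 0.845 and miR-126a-5p of the same hairpin at 1.13, while miR-222-3p (0.543) was lower and miR-139-5p (1.33) higher.

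Across 166 miRNAs with a known sequence and a mean of at least 100 RPM, the median log2 ratio was 0.13 in 55 miRNAs with a GC content of 40% or less, -0.13 in 82 with over 40% to 50%, and -0.19 in 29 with over 50%. Spearman's rho between GC content and log2 ratio was -0.17 across these miRNAs, which share the same 2 libraries and are not independent of each other.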
